A study of Mus musculus with 8 samples.

Results

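Distal low-methylated CpG stretches are short runs of CpGs that lie away from promoters and carry little or intermediate methylation in control neural precursor cells (NPCs). They were chosen by the following rule. A stretch held at least 3 listed autosomal CpGs with gaps of at most 200 bp, lay 5 to 100 kb from the nearest transcription start site (TSS) of a protein-coding gene and outside coding exons, and had a mean level of 10 to 50% in the control bisulphite libraries. Each of its CpGs was covered by 10 or more calls in every one of the 8 libraries. The rule found 2336 stretches with 15387 CpGs, among 54084 runs of at least 3 CpGs on the autosomes and among 19382 distal runs of any level. Of the other distal runs, 15985 were above 50% and 1061 were below 10%.

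The NPCs were derived from A2lox.cre mouse embryonic stem (ES) cell clones with a doxycycline-inducible shRNA, given at 2 µg/ml for 5 days in every group. The shRNA was either the Scrambled control (shScr) or directed against *Tet3* (shTet3), with 2 replicates of each. Each replicate's DNA, 100 ng digested with MspI, was split for a pair of libraries. Bisulphite treatment (BS) leaves 5mC as well as 5hmC as C, whereas oxidation ahead of the bisulphite (oxBS) makes 5hmC read as T, so that oxBS measures 5mC alone. Nothing in the labels says whether the replicates came from separate cultures. A p-value from a test that compares replicates thus measures only the spread between these samples, which may be technical. The logistic regressions pool the calls of the replicates, so their p-values cover counting error only and no spread between samples. *Tet3* RNA and markers of the cells are not measured by this assay, so the knockdown and the cell type could not be checked here.

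TET3 is one of the dioxygenases that oxidise 5mC to 5hmC and further products, a route by which methylation can be removed. Away from promoters, most CpGs of mammalian genomes are highly methylated. Distal stretches of low or intermediate methylation are known from enhancers and other sites bound by transcription factors, from CpG islands far from annotated starts, and from imprinted loci. Here the stretches were defined by methylation and position alone, and no mark of enhancer activity was used.

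Since the rule used the shScr BS libraries, the level in those libraries describes the choice and is no result. The change was measured in the oxBS libraries. The shScr oxBS libraries are separate libraries made from the same DNA as the shScr BS libraries, so the control side of the comparison is not free of the choice.

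Of the 2336 stretches, 1341 were intergenic, 730 lay in introns of protein-coding genes, 181 touched a non-coding exon or an untranslated part of an exon, and 84 lay in genes of other types. A stretch held 4 CpGs in the median (range 3 to 98) over 87 bp (range 7 to 1430), and the median distance to the nearest TSS was 21470 bp. The nearest protein-coding gene differed for most of them. The stretches had 1835 nearest genes, 1489 of which were nearest to 1 stretch only.

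The following stretches carry the main patterns and are shown 5′ to 3′ in the genome build mm9, with the measured CpGs in capitals. *Tmem132b* (5 CpGs, intronic) and *Tacc1* (5 CpGs, intergenic) are among the largest decreases. *Hoxc4* (intergenic) and *Plagl1* (intergenic) are stretches near a Hox gene and an imprinted gene that were lower in both shTet3 replicates. *Otx1* (intergenic) has one of the highest numbers of CpGs, *Kifc5b* (in a gene of another type) barely differed, and *Naprt1* (intergenic) was higher.
Tmem132b (chr5:126139591-126139712, plus strand): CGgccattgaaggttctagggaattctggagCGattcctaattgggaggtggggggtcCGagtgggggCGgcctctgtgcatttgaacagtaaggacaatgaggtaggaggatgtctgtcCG
Tacc1 (chr8:26323969-26324050, plus strand): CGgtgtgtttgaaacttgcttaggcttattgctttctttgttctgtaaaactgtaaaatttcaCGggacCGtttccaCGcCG
Hoxc4 (chr15:102891209-102891487, plus strand): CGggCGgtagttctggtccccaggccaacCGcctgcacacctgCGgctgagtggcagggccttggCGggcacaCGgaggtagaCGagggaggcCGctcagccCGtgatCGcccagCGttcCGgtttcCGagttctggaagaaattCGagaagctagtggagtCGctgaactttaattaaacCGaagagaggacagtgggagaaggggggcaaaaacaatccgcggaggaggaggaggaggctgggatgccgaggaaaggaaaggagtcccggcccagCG
Plagl1 (chr10:12780688-12780967, plus strand): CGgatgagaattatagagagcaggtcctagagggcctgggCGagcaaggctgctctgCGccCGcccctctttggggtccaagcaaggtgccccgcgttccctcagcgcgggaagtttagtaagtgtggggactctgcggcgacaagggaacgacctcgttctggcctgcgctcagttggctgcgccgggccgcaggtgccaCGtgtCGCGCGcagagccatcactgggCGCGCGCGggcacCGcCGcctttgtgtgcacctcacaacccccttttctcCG
Otx1 (chr11:21893155-21893453, plus strand): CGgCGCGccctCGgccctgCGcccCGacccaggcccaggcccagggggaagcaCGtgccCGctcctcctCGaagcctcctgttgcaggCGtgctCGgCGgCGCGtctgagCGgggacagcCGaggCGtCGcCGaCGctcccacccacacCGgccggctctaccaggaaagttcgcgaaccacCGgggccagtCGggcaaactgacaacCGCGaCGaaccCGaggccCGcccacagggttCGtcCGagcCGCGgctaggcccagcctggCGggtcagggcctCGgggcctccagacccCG
Kifc5b (chr17:27029829-27029943, plus strand): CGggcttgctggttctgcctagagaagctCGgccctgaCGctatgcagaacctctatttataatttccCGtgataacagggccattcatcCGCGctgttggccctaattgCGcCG
Naprt1 (chr15:75714607-75714680, plus strand): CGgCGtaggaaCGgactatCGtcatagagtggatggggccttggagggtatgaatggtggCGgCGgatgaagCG
The sequences of *Tmem132b*, *Tacc1*, *Kifc5b* and *Naprt1* are whole stretches in which every CpG was measured. Those of *Hoxc4* (17 of 21 CpGs measured) and *Otx1* (35 of 38) are the windows of at most 300 bases with the most measured CpGs of a longer stretch. *Plagl1* is shown whole, and 15 of its 27 CpGs were measured.

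The first question was how 5mC at these stretches differed between shTet3 and shScr NPCs. The mean oxBS level of the stretches, averaged without weights over CpGs and then over stretches, was 29.3% in shScr replicate 1 and 39.6% in shScr replicate 2. It was 25.3% and 24.1% in shTet3 replicates 1 and 2. Both shTet3 replicates were below both shScr replicates, but the control replicates lay 10.2 percentage points apart, about as far as the shRNAs did. The group means were 34.4% ± 7.24 (SD, n = 2) and 24.7% ± 0.845 (SD, n = 2), a difference of -9.75 points (two-sided exact permutation test, p = 0.33, the smallest p that 2 libraries against 2 can give). Against shScr replicate 1 alone the difference was -4.63 points, and against replicate 2 alone it was -14.9 points.

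The BS libraries, given as a description because the rule used them, had means of 29.2% and 39.5% in shScr against 25.9% and 24.9% in shTet3. The gap between the control replicates was therefore present in both libraries of each DNA, at 10.3 points in BS. BS minus oxBS, which would reflect 5hmC, was -0.116 and -0.0311 points in the shScr replicates and 0.557 and 0.834 points in the shTet3 replicates. The shScr values rest on BS levels that the rule held to at most 50%, so they are a description and give no estimate of 5hmC. In distal runs above 50% they were 1.15 and 0.950 points, and over all runs 0.655 and 0.554 points. At single stretches, the 5th to 95th percentiles of BS minus oxBS ran from -15.5 to 13.7 points in shScr replicate 1, so that values of either sign were common.

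**Figure D1:**
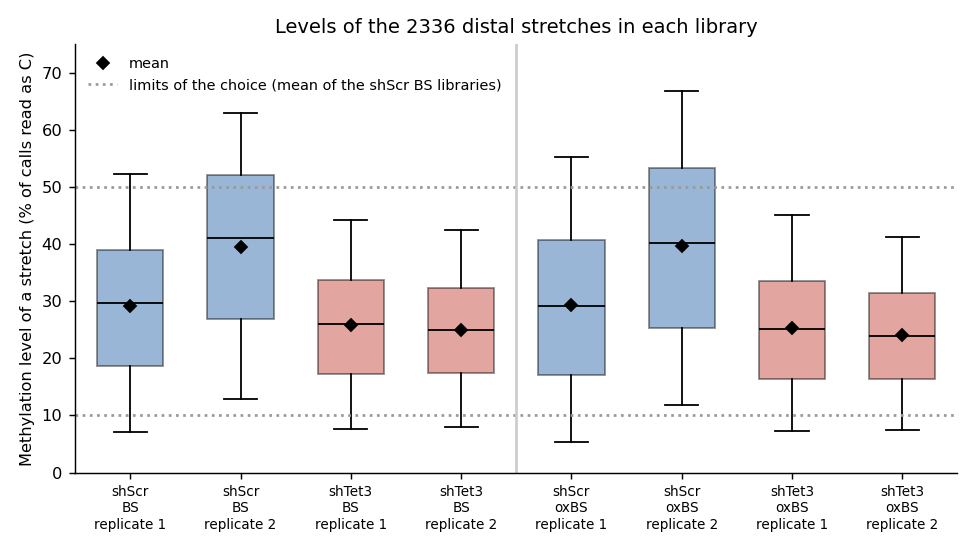
Methylation level (percent of calls read as C) of the 2336 distal stretches in each of the 8 libraries, BS on the left and oxBS on the right. Boxes span the quartiles with the median as a line, whiskers reach the 5th and 95th percentiles, diamonds are means, and dotted lines are the limits of the choice at 10 and 50%. The median in oxBS was 29.2% and 40.2% in shScr against 25.05% and 23.9% in shTet3, and the shTet3 boxes are narrower.

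The label "low-methylated" fits only part of the stretches. In the BS libraries used to choose them the median was 36.7%, and 947 of the 2336 lay between 40 and 50%, so many are better called intermediate. In oxBS, the mean of the shScr replicates was within 10 to 50% at 1976 stretches, below 10% at 77 and above 50% at 283. In shScr replicate 2 alone, 725 stretches were above 50%, against 213 in replicate 1. The mean of the shTet3 replicates was above 50% at 14 and below 10% at 206.

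Stretches were tested one by one by a logistic regression on their summed oxBS calls, with Benjamini-Hochberg adjustment over all 54084 autosomal runs, and called when *q* was under 0.01 with more than 10 points between the pooled levels. At these thresholds 963 stretches (41.2%) were lower in shTet3, where 50.2% of all runs were, and 13 (0.557%) were higher, where 0.098% of all runs were. The median pooled difference was -8.78 points (range -39.4 to 20.05), and 2108 stretches (90.2%) had a negative difference. Over all runs the median was -10.7 points. The share called lower was thus below that of all runs, whose median level in the shScr BS libraries was 60.2%.

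Both shTet3 replicates were below both shScr replicates at 1016 stretches (43.5%), against 54.5% of all runs. Both were above at 14 (0.599%), against 2.76% of all runs. Of the 963 stretches called lower, 680 (70.6%) had groups that did not overlap, and 7 of the 13 called higher did. The logistic regression pools the replicates and has no term for the spread between them. With a moderated test on M-values (limma), which uses that spread, no stretch passed, and the lowest adjusted p among the stretches was 0.294 (102 lower and 5 higher at an unadjusted p under 0.05).

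Without shScr replicate 2, the counts were 574 lower and 164 higher, and without shScr replicate 1 they were 1336 lower and 46 higher. Without shTet3 replicate 2, 28 were higher. The count of stretches called higher in particular depended on which control was used.

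The control replicates were more than 10 points apart at 1493 stretches (63.9%), and the shTet3 replicates at 519 (22.2%). Replicate 2 of shScr was the higher one at 1709 stretches (73.2%). The difference between the shScr replicates of a stretch in BS and that in oxBS had a Pearson correlation of 0.789 over the 2336 stretches, and that between the shTet3 replicates of 0.292. These correlations are across stretches, which share the libraries and are not independent replicates. The control spread therefore recurs in separate libraries of the same DNA.

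**Figure D2:**
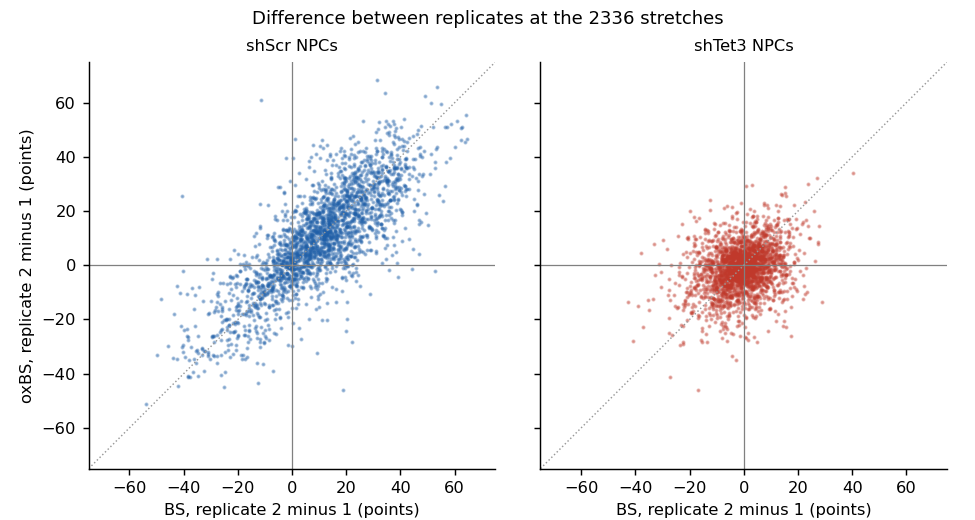
Difference between replicate 2 and replicate 1 (percentage points) at each of the 2336 stretches, in BS on the x axis and in oxBS on the y axis, for shScr (left) and shTet3 (right). Each point is a stretch and the dotted line marks equal differences. The shScr points run along the line toward positive values (r = 0.789), and the shTet3 points form a rounder cloud around 0 (r = 0.292).

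At the 843 stretches whose shScr oxBS replicates were within 10 points of each other, the oxBS means were 29.5% and 30.6% in shScr against 22.1% and 21.3% in shTet3. The difference of -8.40 points was close to that over all stretches. Of the 843, 291 (34.5%) were called lower, where 41.2% of all stretches and 50.2% of all runs were, and 4 higher. This subset was formed after seeing the data, by the shScr oxBS values themselves. The closeness of its control replicates therefore follows from the choice and is no result.

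The size of the difference was then read against the level in control NPCs. In stretches at 10 to 20%, 20 to 30%, 30 to 40% and 40 to 50% in the shScr BS libraries, the oxBS difference was -3.47, -6.50, -9.76 and -13.7 points. The share called lower was 4.03%, 23.6%, 41.8% and 63.6%. A fixed number of points is a smaller part of a higher level, so the differences were also read as a ratio. The shTet3 level was 75.7%, 73.8%, 72.4% and 70.3% of the shScr level in the same bins. Against shScr replicate 1 alone it was 91.6%, 90.9%, 84.1% and 81.9%, and against replicate 2 alone 64.6%, 62.2%, 63.6% and 61.7%.

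For comparison, 2387 promoter runs (within 1 kb of a TSS) had a shScr BS level of 10 to 50% too. Their oxBS means were 23.1% and 26.1% in shScr against 18.2% and 18.3% in shTet3, a difference of -6.32 points. The distal difference minus the promoter difference was -3.43 points (two-sided exact permutation test over libraries, p = 0.67), and without shScr replicate 2 it was 0.225 points. Bin by bin, promoter runs differed by -3.55, -6.03, -8.65 and -11.6 points against the mean of the controls. Against shScr replicate 1 alone, the 4 bins gave -0.999, -1.84, -4.85 and -7.19 points at distal stretches and -2.44, -4.70, -7.65 and -8.21 points at promoter runs. Against replicate 2 alone they gave -5.94, -11.2, -14.7 and -20.2 points at distal stretches and -4.65, -7.36, -9.65 and -14.9 points at promoter runs. The order of distal stretches and promoter runs thus turned with the control. The control replicates of promoter runs were 2.94 points apart, against 10.2 points at the distal stretches. A difference between distal stretches and promoter runs of like level was thus not shown.

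**Figure D3:**
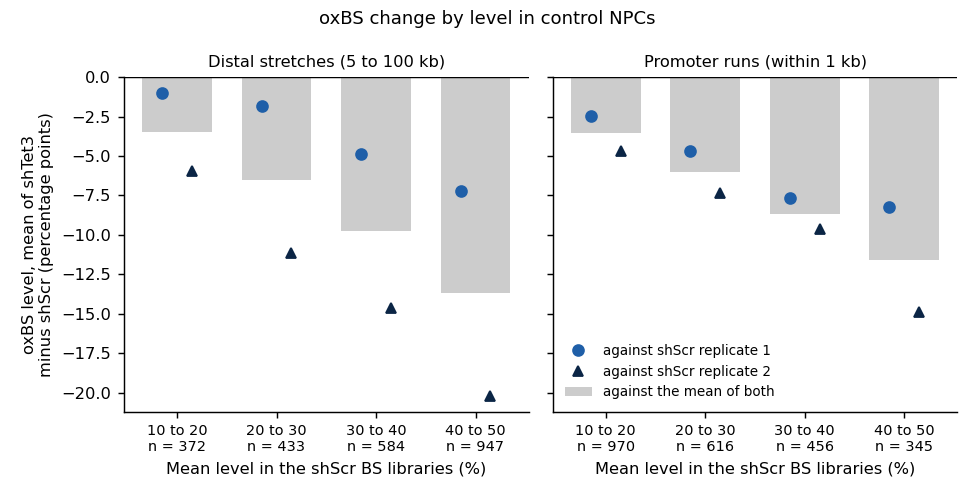
Mean oxBS level of shTet3 minus shScr (percentage points) by the level in the shScr BS libraries, for distal stretches (left) and promoter runs (right). Bars use the mean of both shScr replicates, circles shScr replicate 1 alone and triangles shScr replicate 2 alone. The bars run from -3.47 to -13.7 at distal stretches and from -3.55 to -11.6 at promoter runs, and the circles and triangles lie much farther apart at the distal stretches.

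Distal runs above 50% differed by more. Their oxBS means were 67.9% and 79.5% in shScr against 56.0% and 56.7% in shTet3, a difference of -17.4 points, and 80.2% of them were called lower. The difference at the low-methylated stretches was 7.63 points smaller (two-sided exact permutation test over libraries, p = 0.33, the smallest possible), with all 4 leave-one-out values between 6.71 and 8.56. As a ratio, the shTet3 level was 71.7% of the shScr level at the low-methylated stretches and 76.4% at the distal runs above 50%. The order of these ratios depended on the control, with 84.2% and 82.9% against shScr replicate 1 and 62.4% and 70.9% against shScr replicate 2. Distal runs below 10% had oxBS means of 2.31% and 3.35% in shScr against 2.23% and 2.22% in shTet3.

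Within the stretches, the CpGs themselves were counted. Of the 15387 CpGs, 2209 (14.4%) were called lower by the same test per CpG, where 14.4% of all autosomal CpGs were. Another 39 (0.253%) were called higher, where 0.0815% of all autosomal CpGs were. Calls lower were spread over 1105 stretches, 271 of which held 3 or more. By the CpG's own level in the shScr BS libraries, the mean oxBS difference ran from -1.41 points at 0 to 10% and -5.53 points at 10 to 30% to -14.8 points at 50 to 70% and -16.0 points at 70 to 100%. These bins pool CpGs over all stretches, and a difference in points cannot exceed the level itself. CpGs at 0 to 10% read 4.68% and 6.80% against 4.39% and 4.28% in oxBS, and those at 70 to 100% read 69.0% and 78.0% against 56.9% and 58.0%.

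A mean of 10 to 50% arose in different ways. At 787 stretches the CpGs were even (SD of their shScr BS levels under 10 points), and at 557 stretches they were graded (SD of 20 points or more). Among all stretches, 242 held both a CpG above 70% and a CpG below 10%. The oxBS difference was -8.80 points at even and -11.1 points at graded stretches, which also differed in level (oxBS 30.6% and 38.9% in shScr). As a ratio, the shTet3 level was 71.2% and 71.4% of the shScr level. Against shScr replicate 1 alone the differences were -2.63 and -5.90 points, and against replicate 2 alone -15.0 and -16.3 points.

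Short stretches seemed to differ more than long ones, but this rested on the control used. Against both controls, the difference was -11.2 points at the 1221 stretches with 3 to 4 CpGs, -9.0 with 5 to 9, -7.31 with 10 to 19 and -4.60 at the 94 with 20 or more. Against shScr replicate 1 alone, the values were -4.74, -4.20, -5.88 and -2.84 points. Against replicate 2 alone they were -17.6, -13.8, -8.74 and -6.35 points. The gap between control replicates was 12.8 points at the shortest and 3.51 points at the longest stretches. Level differed as well, with a shScr oxBS mean of 37.3% at the shortest and 24.0% at the longest. In stretches at 30 to 50% in the shScr BS libraries, the differences were -13.1, -11.5, -9.77 and -6.81 points. Against shScr replicate 1 alone they were -6.17, -6.22, -7.88 and -3.43 points. Distance to the TSS made little difference, with -8.96 points at 5 to 10 kb and -10.0 points at 50 to 100 kb. The difference was -10.1 points in intergenic and -9.65 points in intronic stretches, and -9.32 points in genes of other types. It was -7.71 points at the 181 stretches touching an exon. Against shScr replicate 1 alone, intergenic, intronic and exon-touching stretches differed by -4.92, -4.04 and -4.01 points. Against replicate 2 alone they differed by -15.3, -15.3 and -11.4 points. Stretches touching an exon had a shScr oxBS mean of 31.3%, against 34.2% in intergenic and 35.6% in intronic stretches. Their median number of CpGs was 8, against 4 in the other 2 classes.

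**Figure D4:**
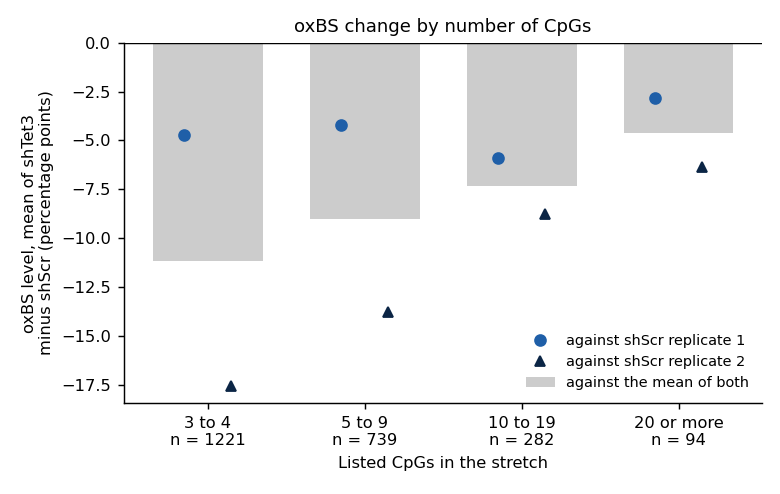
Mean oxBS level of shTet3 minus shScr (percentage points) by the number of measured CpGs in the stretch. Bars use the mean of both shScr replicates, circles replicate 1 and triangles replicate 2. The triangles rise from -17.6 to -6.35 points with the number of CpGs, and the circles stay between -2.84 and -5.88 points.

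The largest decreases were taken from stretches with at least 5 CpGs whose groups did not overlap. They lay near *Crem*, *Mypn*, *Nkain2*, *Tas2r130*, *Tacc1*, *Slco1b2*, *Tmem132b* and *Zfp120*, with pooled differences from -35.8 to -27.8 points. At *Tmem132b* (chr5:126139591-126139712, intronic, 36733 bp from the TSS), which encodes a transmembrane protein, the oxBS level was 49.8% and 50.5% in shScr against 23.0% and 23.1% in shTet3. All 5 CpGs were lower in both shTet3 replicates, 4 of them called, and each library had 193 to 298 calls over the stretch (logistic regression, adjusted p = 6.7e-18). Its BS levels were 37.3% and 51.2% in shScr against 26.0% and 23.4% in shTet3. The 2 replicates of each shRNA were close in oxBS. Here and at the other stretches, BS levels are given as a description, since the rule used those of shScr.

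At *Tacc1* (chr8:26323969-26324050, intergenic), which encodes a coiled-coil protein of the centrosome and spindle, the oxBS level was 57.8% and 65.4% in shScr against 27.3% and 34.8% in shTet3. In BS the same DNA read 42.3% and 39.4% in shScr against 42.8% and 46.8% in shTet3. The order of the groups thus differed between oxBS and BS, with 67 to 100 calls per library in the stretch. At *Mypn* (chr10:62642429-62642515, intronic), a gene for a sarcomere protein, oxBS read 24% and 60% in shScr against 7.5% and 10.6% in shTet3, whereas BS read 0% and 42.4% in shScr against 35.3% and 19.96% in shTet3. *Mypn* had as few as 50 calls in a library.

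At *Nkain2* (6 CpGs), which encodes a partner of a sodium pump in the nervous system, oxBS read 56.6% and 68.1% in shScr against 45.7% and 19.1% in shTet3. At *Slco1b2* (5 CpGs), a transporter of the liver, it read 37.6% and 72.5% against 31.5% and 24.5%, and at *Tas2r130* (5 CpGs), a bitter taste receptor, 35% and 66.9% against 30.7% and 17.8%. At both, shScr replicate 1 was much closer to the shTet3 replicates than shScr replicate 2 was. At *Zfp120* (5 CpGs), a zinc-finger gene, it read 50.8% and 67.7% against 30.2% and 26.8%, and at *Crem* (5 CpGs), a transcription factor of the cAMP response, 66.0% and 70.1% against 49.6% and 24.0%. The shTet3 replicates of *Crem* and *Nkain2* were themselves far apart, with replicate 2 the lower one. In BS the groups overlapped at *Zfp120* (35.3% and 47.0% in shScr against 54.4% and 21.8% in shTet3). *Crem* read 35% and 61.8% against 58.9% and 32.4%, and *Tas2r130* 37.0% and 62.2% against 63% and 27.8%. *Slco1b2* overlapped too, with 27.0% and 62.4% against 32.2% and 23.5%. *Nkain2* did not, with 44.2% and 46.6% against 34.0% and 26.0%. *Crem* had 50 to 125 calls per oxBS library and *Tas2r130* 80 to 237.

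At all 8 of these largest decreases, the mean shScr oxBS level was above the shScr BS level, with means of 56.2% and 41.9%. Their difference between shTet3 and shScr was -29.5 points in oxBS but -6.44 points in BS, and 6 of the 8 were lower in BS. BS can only read higher than or equal to oxBS apart from error, since it reads 5hmC as well. Among all 963 stretches called lower, the shScr oxBS level was above BS at 641 (66.6%), and among the 1360 not called at 460 (33.8%). At the 963, the difference was -16.7 points in oxBS and -12.1 points in BS, and 926 were lower in shTet3 in BS as well. Among the 1360, 1209 (88.9%) were lower in BS. These counts are a description, since choosing by a decrease in oxBS favours high control oxBS levels and the rule held the control BS level to at most 50%.

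The stretches with the most CpGs had more calls and smaller differences. At *Otx1* (chr11:21893155-21893876, 66 CpGs, 7743 bp from the TSS), a homeobox gene of the forebrain and midbrain, oxBS read 13.7% and 14.2% in shScr against 9.20% and 10.6% in shTet3, with 4211 to 6846 calls per library. Both shTet3 replicates were lower, by 4.55 points pooled, which is under the threshold of 10 points. At *Il17ra* (98 CpGs), which encodes an interleukin receptor, oxBS read 14.7% and 14.0% in shScr against 11.8% and 11.5% in shTet3. At the 98 CpGs near *Ankrd33* the groups overlapped, with 9.90% and 27.8% in shScr against 13.1% and 17.6% in shTet3. At *4930549C01Rik* (85 CpGs), oxBS read 13.7% and 24.2% in shScr against 13.1% and 12.7% in shTet3, and 8 of its CpGs were called lower.

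Stretches near genes of neural development were read from a list of 101 transcription factors. They numbered 89, nearest to 46 of the genes. Of these, 28 (31.5%) were called lower and 0 higher, with a median pooled difference of -6.52 points. The same values were 41.2% and -8.78 points over all 2336 stretches, and 50.2% and -10.7 points over all runs. The list's oxBS means were 33.2% and 30.1% in shScr against 23.9% and 21.7% in shTet3. Here replicate 1 was the higher control.

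Among the longest of them, *Nfix* (41 CpGs, intronic), a transcription factor of neural stem cells, read 18.2% and 23.7% in shScr against 13.7% and 13.3% in shTet3. At *Pax7* (34 CpGs), a factor of the dorsal neural tube and muscle, the groups overlapped, at 18.4% and 14.9% against 15.4% and 12.3%. The following 4 were singled out after their values were seen. Near *Pax6* (5 CpGs), a marker of radial glia, oxBS read 50.3% and 58.2% in shScr against 24.3% and 35.1% in shTet3. Near *Sox2* (4 CpGs), a factor of neural stem cells, it read 48.5% and 41.3% against 28.7% and 29.9%. Near *Nr2f1* (6 CpGs), a nuclear receptor of the developing cortex, it read 42.8% and 45.2% against 22.4% and 21.0%. Near *Barhl2* (9 CpGs), a homeobox gene, it read 42.9% and 41.4% against 21.0% and 19.04%. These were picked for being called lower, and in the whole list 28 of 89 stretches were called lower. In the list, 40 of the 89 had both shTet3 replicates below both shScr replicates, where 43.5% of all 2336 stretches and 54.5% of all runs did.

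*Pax2*, a factor of the midbrain, hindbrain and kidney, was the gene with the most stretches, 9 with 97 CpGs. Of these, 2 were called lower. The one 81134 bp away (14 CpGs) read 45.9% and 58.1% in shScr against 36.5% and 32.3% in shTet3, and the one 6991 bp away (6 CpGs) read 66.9% and 32.2% against 31.1% and 26.6%. The longest *Pax2* stretch, with 29 CpGs, was not called and its groups overlapped, at 12.9% and 17.5% against 17.2% and 15.9%. Stretches near the same gene thus gave different results. Among genes with 6 stretches, *Lbx1*, a homeobox factor of spinal interneurons, and *Zfp64*, a zinc-finger gene, each had 4 called lower. *Pou3f2*, a POU factor of neural precursors, *Nanos3* and *Rhbg* each had 1. The oxBS means of the *Lbx1* stretches were 30.4% and 32.5% in shScr against 19.1% and 19.6% in shTet3. Those of *Zfp64* were 25.1% and 47.7% against 25.7% and 23.2%, so shScr replicate 1 was near the shTet3 replicates there.

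Retinoic acid was used to differentiate these cells, and a list of 80 retinoic acid and Hox genes had 15 stretches nearest to 9 genes. Of these, 3 (20%) were called lower, where 41.2% of all stretches and 50.2% of all runs were, and 0 higher, with a median pooled difference of -5.90 points. At *Hoxc4* (chr15:102891209-102891611, 23 CpGs, intergenic), a homeobox gene of positional identity, oxBS read 44.5% and 46.9% in shScr against 28.7% and 32.9% in shTet3, with 1478 to 1833 calls per library. BS read 40% and 50.7% in shScr against 24.7% and 36.5% in shTet3. In oxBS, 8 CpGs were called lower and 14 were lower in both replicates (adjusted p = 1.7e-22, logistic regression). A second stretch near *Hoxc4* (6 CpGs) was also called, at 41.6% and 25.6% against 18.7% and 24.7%. *Hoxa13* and *Hoxd3*, near other Hox clusters, were not called, with 12.5% and 18.4% against 13.3% and 14.1% at *Hoxa13*, and 27.4% and 15.4% against 18.2% and 16.6% at *Hoxd3*.

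**Figure D5:**
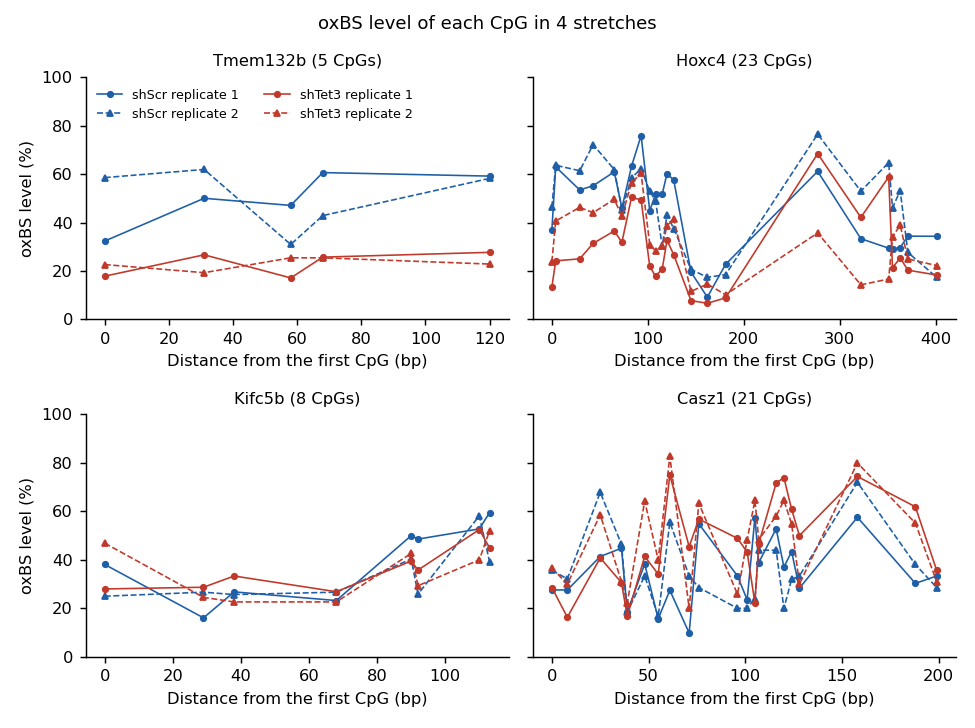
oxBS level (%) of each measured CpG against its distance from the first CpG of the stretch (bp), in both shScr (blue) and both shTet3 (red) replicates, for *Tmem132b*, *Hoxc4*, *Kifc5b* and *Casz1*. At *Tmem132b* the red lines lie below the blue ones at every CpG, at *Hoxc4* at 14 of 23 CpGs, at *Kifc5b* the lines cross, and at *Casz1* the red lines lie above at 11 of 21 CpGs.

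The list of 68 imprinted genes had 24 stretches nearest to 15 genes. Of these, 8 (33.3%, against 41.2% of all stretches and 50.2% of all runs) were called lower and 0 higher, with a median pooled difference of -7.11 points. At *Plagl1* (chr10:12780688-12780967, 15 CpGs, 29628 bp upstream), which encodes a zinc-finger factor, oxBS read 31.7% and 34.0% in shScr against 18.6% and 21.6% in shTet3 (adjusted p = 6.4e-13, logistic regression). BS read 27.7% and 27.3% in shScr against 22.9% and 28.4% in shTet3, so that the BS libraries overlapped where the oxBS libraries did not. At *Cdkn1c*, a cyclin-dependent kinase inhibitor, the stretch with 21 CpGs read 33.8% and 37.7% against 23.6% and 25.9% and was called lower. The other, with 18 CpGs, read 12.3% and 12.97% against 10.6% and 9.73% and was not.

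Signalling ligands and receptors (93 genes) had 23 stretches nearest to 16 genes, 10 lower (43.5%, near the 41.2% of all stretches and below the 50.2% of all runs) and 0 higher, with a median pooled difference of -8.39 points. The 3 with the most CpGs were not called. At *Notch3*, a Notch receptor (52 CpGs), the groups overlapped, at 21.7% and 28.4% against 15.7% and 22.4%. At *Wnt7b*, a Wnt ligand (50 CpGs), oxBS read 10.1% and 17.4% against 9.15% and 9.80%, and at *Fzd9*, a Wnt receptor (16 CpGs), 11.5% and 32.8% against 12.5% and 14.4%.

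Pluripotency genes (38 genes) had 11 stretches nearest to 7 genes, 2 lower (18.2%, against 41.2% of all stretches and 50.2% of all runs) and 0 higher, with a median pooled difference of -7.81 points. Near *Otx2*, also a neural factor, the stretch with 27 CpGs read 28.9% and 31.5% in shScr against 24.96% and 28.2% in shTet3. The one with 13 CpGs read 68.9% and 30.04% against 29.99% and 42.1%, and its groups overlapped. The *Sall1* stretch with 10 CpGs read 8.29% and 3.09% against 1.93% and 8.18%. Those called lower were near *Tbx3* (5 CpGs), at 25.5% and 33.7% against 14.1% and 15.01%, and near *Sall1* (6 CpGs), at 22.4% and 42.8% against 39.2% and 12.3%. The groups of the latter overlapped. Among the other stretches of the list, that near *Esrrb* (3 CpGs), an orphan nuclear receptor, read 19.8% and 45.4% against 27.5% and 24.7%.

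Higher levels in shTet3 were few. Of the 13 stretches called higher, 7 had groups that did not overlap, and 3 of these had at least 5 CpGs. *Casz1*, a zinc-finger transcription factor, had the longest of them (chr4:148326743-148326943, 21 CpGs), and the annotation places it in the 3′ untranslated part of the last exon, 19520 bp from the nearest TSS. The oxBS level there was 35.3% and 35.4% in shScr against 46.4% and 48.1% in shTet3, with 501 to 949 calls per library (pooled difference 11.2 points, adjusted p = 1.6e-09, logistic regression). BS read 32.1% and 37.5% in shScr against 44.5% and 41.9% in shTet3. Of the other 6 stretches near *Casz1*, 0 were called in either direction.

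At *Naprt1* (7 CpGs), an enzyme of NAD synthesis, oxBS read 3.49% and 4.24% in shScr against 17.5% and 13.4% in shTet3, but BS read 6.65% and 23.3% in shScr against 5.83% and 9.71% in shTet3. The order was therefore different in BS. At *Pcdhgc5* (5 CpGs, intronic), a clustered protocadherin, oxBS read 10.5% and 13.8% against 33.0% and 26.4%, and BS read 13.1% and 34.7% against 0.833% and 18.8%. Over the 13 stretches, oxBS differed by 12.6 points and BS by -0.461 points.

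Some stretches with intermediate levels showed small differences. At *Kifc5b* (chr17:27029829-27029943, 8 CpGs), a gene for a kinesin, oxBS read 39.4% and 33.5% in shScr against 36.2% and 35.1% in shTet3. At *Rps13-ps1* (16 CpGs) it read 30.4% and 37.8% against 33.1% and 32.7%. Replicate 2 minus replicate 1 of shScr in oxBS was -5.91 and 7.39 points at these 2, and both shTet3 values lay between the controls. At *Nr2f2* (13 CpGs), a nuclear receptor, and *Hpdl* (10 CpGs), the small difference was that of control replicates far apart, with 53.9% and 33.7% against 43.2% and 40.5%, and 38.3% and 69.3% against 54.1% and 49.1%. These stretches were named because their difference was small.

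At the limits of the rule, the stretch just inside 10% was near *Bst1* (shScr BS mean 10.03%, oxBS 0.560% and 15.7% in shScr, 4.13% and 5.26% in shTet3). The one just outside was near *Shank2* (shScr BS mean 9.993%, oxBS 9.30% and 7.60% in shScr, 4.40% and 5.27% in shTet3). Just inside 50% was a stretch near *Ccpg1* (shScr BS mean 49.996%, oxBS 56.5% and 67.8% in shScr, 44.8% and 61.2% in shTet3), and just outside was one near *Wnt5b* (shScr BS mean 50.003%, oxBS 43.7% and 49.6% in shScr, 31.2% and 34.6% in shTet3).

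The sequence of the stretches was read in windows of 300 bp around their centres. The median GC content was 55.3% and the median observed over expected CpG ratio 0.459, between those of distal runs above 50% (52.7% and 0.384) and below 10% (64.0% and 0.750). Promoter runs of the same level range were richer (61.3% and 0.612). Short motifs were searched on both strands, and a match is a string of letters and not a shown site. The homeodomain motif TAATTA was present in 4.92% of the windows and in 2.97% of those of all runs, and in 4.67% of those of distal runs above 50%. The other motifs are given for the stretches, then for all runs and distal runs above 50%. The E-box CAGCTG was present in 21.3%, 19.5% and 19.9%, and the more general CANNTG, which holds CAGCTG, in 75.3%, 74.0% and 82.3%. The SOX motif ATTGTT was present in 7.79%, 6.35% and 8.51%, and the nuclear receptor half-site AGGTCA in 16.3%, 15.4% and 17.9%. Both were thus above all runs and below distal runs above 50%. The octamer ATGCAAAT was present in 1.58%, 0.961% and 1.36%, the NRF1 core GCGCATGC in 0.942%, 1.48% and 1.13%, and AGGNGGCAG, part of the CTCF motif, in 4.54%, 4.29% and 3.90%. Stretches called lower held TAATTA in 5.19% and those not called in 4.78%.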

How the data were processed

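oxRRBS libraries of shScr and shTet3 NPCs (2 replicates each, BS and oxBS) were assigned to groups by their labels. Reads were trimmed (Trim Galore) and aligned to mm9 (Bismark) by the authors. For every CpG of a library they deposited its coverage, an unnormalized count of calls, and the percent of these calls that read C or T. Versions are not given in the sources used here. All 8 tables held the same 757812 CpGs at a coverage of at least 5, and percent times coverage was whole (within 0.001 calls) at 100% of them. Libraries held 42516767 to 61865967 calls, with a median coverage of 43 to 54. Reads copied by PCR without molecular identifiers are not independent, so tests on calls cover counting error only.

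Runs were chained from CpGs covered by 10 or more calls in every library (602684 autosomal CpGs), separately within promoters (1 kb), coding exons, their flanks, the distal range and beyond 100 kb, with GENCODE vM1. A stretch had a median of 256 calls per library (lowest 30). Levels are unweighted means over CpGs. Library means were compared by two-sided exact permutation tests. Runs and CpGs were tested by a likelihood ratio test of a logistic regression on oxBS calls without overdispersion, adjusted (Benjamini-Hochberg) over all runs or all CpGs, with *q* below 0.01 and a pooled difference over 10 points. The study names methylKit for this step. The test was computed from the counts (Python 3.11.15, scipy 1.17.1), and limma 3.58.1 was run in R 4.3.3. The logistic regression, with and without a replicate block, and an overdispersion-corrected F test were tried on simulated calls. The simulation had no spread between replicates, so it cannot show how often these tests call falsely in the present data. The limma test was not tried on it. Sequences come from mm9. The motifs searched and their letters are given with their values.

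The stretches, the gene lists and the tests were chosen with earlier results of these data known. Stretches are named by their nearest protein-coding gene, without a claim that they act on it. By fixed criteria, the text names the 8 largest decreases and up to 4 largest increases (at least 5 CpGs, called, groups not overlapping). The same holds for the 4 stretches with the most CpGs and the 3 with the most CpGs of each list. It also holds for the 4 smallest differences (at least 8 CpGs and 30% in both shScr replicates) and the stretches at the limits of the rule. Further stretches near neural, retinoic acid and Hox, and pluripotency genes were named outside these criteria. Some of them were picked for being called lower, after their values were seen. The alternatives were other coverage minimums, a coverage maximum, read-weighted levels, choice by 1 BS replicate, other gaps and CpG numbers, TSSs of every biotype, chaining first, Fisher's exact test, an overdispersion-corrected F test, limma, unweighted differences, both replicates beyond both controls, leaving out each replicate and the replicate block. Added once the data had been seen were stretches with control replicates within 10 points and stretches with at least 10 CpGs. Enhancer annotations, gene expression, oxidation spike-ins and sex chromosomes were not analysed here.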

Additional observations from a re-analysis of the deposited data

How the results depend on the processing

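The mean oxBS difference at the stretches was negative under all 18 alternatives, between -13.2 (stretches chosen by BS replicate 1) and -6.63 points (at least 10 CpGs), apart from leaving out a replicate, where it ran from -14.9 to -4.63. Its difference from that of distal runs above 50% stayed positive under all 18, from 4.04 (chosen by BS replicate 1) to 9.81 points (at least 10 CpGs). That from promoter runs ran from -7.08 to 0.225 points on leaving out a replicate, and it reversed to 0.225 without shScr replicate 2. The replicate block is among the 18 alternatives and cannot change these mean differences. With 2 libraries a group, none of these tests can pass 0.05.

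Counts moved more. Stretches called lower (963 of 2336 as reported) numbered 1998 of 3489 when chosen by BS replicate 1 and 617 of 1794 by replicate 2, 377 of 1115 with at least 5 CpGs, 93 of 376 with at least 10 CpGs, 291 of 843 with control replicates within 10 points, and 574 to 1336 on leaving out a replicate. Those called higher numbered 20 at a coverage of 5, 6 at a coverage of 20, 7 with both replicates beyond both controls, 4 with control replicates within 10 points, 2 with at least 10 CpGs, and 15 to 164 on leaving out a replicate. CpGs called lower numbered 4130 when chosen by BS replicate 1, 1384 with at least 5 CpGs, 789 with control replicates within 10 points, 641 with at least 10 CpGs, and 1322 to 3451 on leaving out a replicate. CpGs called higher numbered 22 with both replicates beyond both controls, 10 with control replicates within 10 points, 17 with at least 10 CpGs, and 36 to 412 on leaving out a replicate. The number of stretches that enter differs between these settings. Tests that use the spread between replicates called 0 stretches in either direction (F test, 96 lower and 2 higher at an unadjusted p under 0.05; limma, 102 and 5) and 0 CpGs (F test, 210 and 1).

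With the replicate number as a block, 955 stretches were lower and 12 higher, and 2344 CpGs were lower and 40 higher. Nothing in the labels pairs shScr and shTet3 replicates. The deviations of same-numbered replicates had a correlation of -0.0354 over the stretches, which are not independent. With 2 replicates a group, this cannot show whether same-numbered samples share a batch. The block cannot change the mean differences of -9.75, 7.63 and -3.43 points. Taken by replicate number 1 and 2, the oxBS difference at the stretches was -4.03 and -15.5 points. Its difference from that of distal runs above 50% was 7.89 and 7.37 points, and that from promoter runs 0.864 and -7.72 points.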
